A study of Danio rerio with 15 samples.

Results

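The comparison described here set *mpeg1*+ cells of zebrafish without functional Csf1 receptors against those of zebrafish without the ligand Il34, across all genes. It used 6 of the 15 RNA-sequencing libraries of the series, 3 from csf1rDM and 3 from il34-/- fish, taken by the genotype in the sample labels. csf1rDM fish were homozygous for the csf1ra allele j4e1 and the csf1rb allele re01, and il34-/- fish were homozygous for the il34 allele re03. All fish, including the 3 wild-type controls of the same age, carried the mpeg-GFP reporter. The stage label of these fish is 1.5 mpf (months post fertilization), whereas their titles give 5 months. The 6 other libraries came from csf1rDM and control fish at 33 dpf (days post fertilization), 3 of each. Every library came from GFP+ cells sorted from a single fish, so the 3 libraries of a genotype are 3 animals. The reporter follows the mpeg1 promoter, which is active in macrophages and, in zebrafish, also in metaphocytes. By work that the study cites, some adult B cells express mpeg1 as well. The sorted cells were therefore a mixture, and fewer cells of a type and less RNA per cell cannot be told apart in these data.

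Csf1r is a receptor tyrosine kinase through which macrophages receive signals for survival, proliferation and differentiation. Zebrafish have duplicated receptor genes, csf1ra and csf1rb, and ligand genes csf1a, csf1b and il34. Loss of both receptors should thus remove signalling through Csf1r by every ligand, whereas loss of il34 leaves the other ligands in place. In the mouse, Il34 is the ligand on which Langerhans cells and microglia depend. Metaphocytes are macrophage-like cells of the zebrafish skin that come from ectoderm and combine *mpeg1* and antigen presentation genes with epithelial junction genes.

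Depth ran from 7688093 to 30478713 counts in csf1rDM fish and from 7325021 to 28123979 counts in il34-/- fish. In each genotype replicate 2 was the deepest library. Fish of a genotype differed widely, with a common dispersion of 1.57 over the 17640 genes tested, and many genes were at 0 in some fish and well above it in others. Between a csf1rDM and an il34-/- fish, the distance in log2 CPM, which are counts scaled to a common library size, was 412.2 ± 26.8 (SD, 9 pairs). Within a genotype it averaged 363.7 over the 3 csf1rDM pairs and 367.6 over the 3 il34-/- pairs. Genotype held 31.3% of the squared distance, and none of the 20 arrangements of the 6 fish gave more (two-sided exact permutation p = 0.1, the lowest value that groups of 3 fish can reach). Any split of the fish holds some share of the distance, so the share alone does not measure an effect of genotype.

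Several macrophage genes and genes of protein synthesis were lower in csf1rDM than in il34-/- fish, and epithelial junction genes were higher. Of 17640 genes, 321 (1.82%) are termed called, since they passed edgeR's quasi-likelihood test at a Benjamini-Hochberg adjusted p under 0.05. Of these, 153 (0.867%) were higher and 168 (0.952%) lower in csf1rDM fish. All 321 had no overlap between the fish of both genotypes, as had 22.7% of all genes tested. The median absolute log2 fold change of the called genes was 2.06, and 81 of them passed 4. The median over all genes tested was 0.05. When each of the 6 fish was left out in turn, 83 of the 321 genes were called in all 6 fits (36 higher and 47 lower) and 75 in none, and no called gene changed direction. Such fits called 128 to 217 genes, and 128 to 196 for every fish but il34 replicate 1. For genes whose call was not kept in all 6 fits, the number that kept it is given beside the value.

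**Figure D1:**
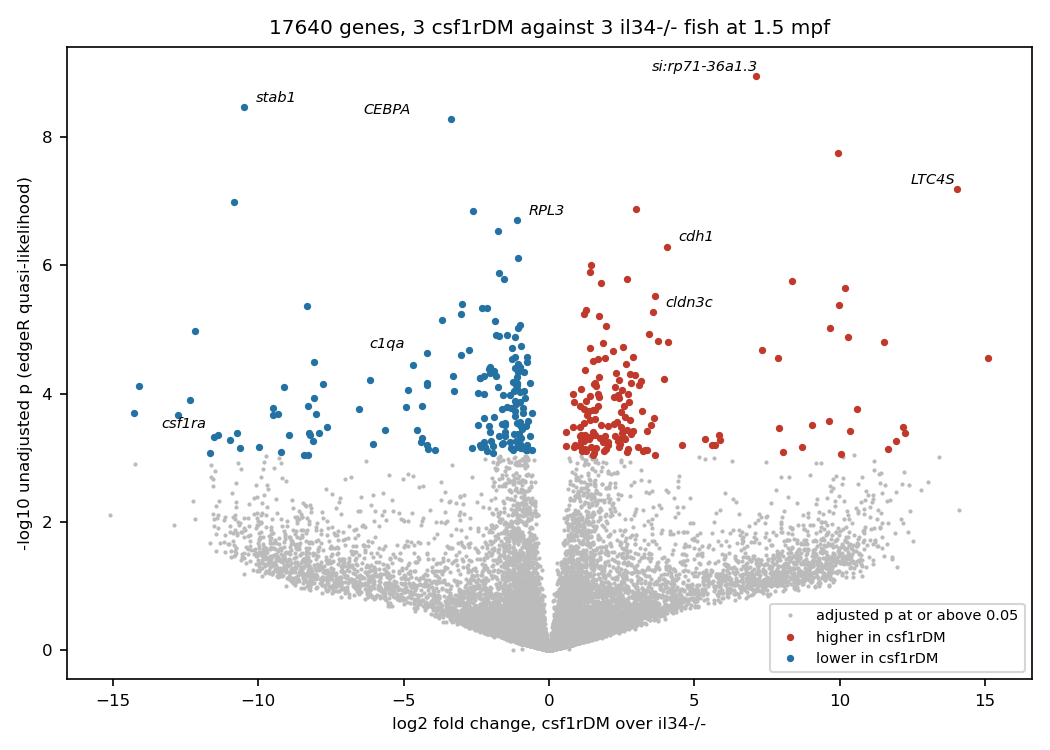
Each of the 17640 genes is a point, with the log2 fold change (csf1rDM over il34-/-) on the horizontal axis and -log10 of the unadjusted p-value on the vertical axis. Red points are the 153 genes higher and blue points the 168 genes lower in csf1rDM fish; the named genes include stab1 and CEBPA on the lower side and cdh1 and cldn3c on the higher side.

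The targeted genes were examined first. csf1ra (ENSDARG00000102986) had 0, 0.0346 and 0 CPM in csf1rDM fish, against 43.7, 24.6 and 71.0 CPM in il34-/- fish. The csf1rDM libraries together held 1 read of csf1ra and the il34-/- libraries 1662, a ratio of il34-/- to csf1rDM of 1750 (95% exact interval for counting error 314 to 69300). csf1ra was called (adjusted p = 0.034), but in none of the 6 fits that left out 1 fish (adjusted p 0.056 to 0.16). It had 198, 115 and 206 CPM in controls, above all il34-/- fish, and 33.9 CPM in csf1rDM replicate 2 at 33 dpf. A mutant allele can still be transcribed, so these levels were no check of the csf1rDM label. csf1rb had 45.4, 32.7 and 35.5 CPM in csf1rDM fish and 149, 221 and 58.7 CPM in il34-/- fish (log2 fold change -1.92, adjusted p = 0.24). Its groups did not overlap, but the difference missed the threshold. Transcripts of il34 itself were at 23.2, 31.4 and 2.83 CPM in csf1rDM fish and 6.02, 10.203 and 19.2 CPM in il34-/- fish, which overlap, and control fish had 21.98, 19.9 and 11.4 CPM. The level of il34 in these cells thus gave no check of the il34-/- label. The other ligand genes were at or near 0, csf1a with 0, 0 and 0 CPM in csf1rDM and 0, 0.0368 and 0 CPM in il34-/- fish and csf1b with 3.24, 0 and 0 CPM in csf1rDM and 5.10, 0 and 0 CPM in il34-/- fish. Of the reporter's paralogs, the abundant MPEG1 (ENSDARG00000055290) had 7194, 7920.3 and 4174 CPM in csf1rDM fish and 3801, 4978 and 3525 CPM in il34-/- fish (adjusted p = 0.22), with overlap.

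Genes for engulfment and clearance went both ways, with 5 of 28 tested members of the list lower and 2 higher (25%, against 1.82% of all genes). The median log2 fold change of the list was -0.14, or -0.085 with genes at 0 in a genotype set to the bound that 3 reads allow. stab1 (ENSDARG00000076484), which encodes stabilin-1, a scavenger receptor of macrophages and endothelium, had 0, 0.0692 and 0.0977 CPM in csf1rDM fish, against 90.8, 155 and 58.7 CPM in il34-/- fish. The csf1rDM libraries held 3 reads in all and the il34-/- libraries 5460, a ratio of 1920 (95% exact interval for counting error 657 to 9320; adjusted p = 3e-05). Every csf1rDM fish was near 0, and il34-/- and control fish (171, 63.2 and 185 CPM) overlapped. mertka, a receptor tyrosine kinase for apoptotic cells, had 0, 0.0346 and 0 CPM in csf1rDM fish and 12.03, 13.6 and 30.4 CPM in il34-/- fish (adjusted p = 0.022). Its call was kept in 3 of the 6 fits, each time with all csf1rDM fish present (adjusted p 0.037 to 0.11 over the 6), and in controls it had 58.5, 68.3 and 78.5 CPM. The other lower members were havcr2, ANXA1 and fcer1gl, a paralog of the Fc receptor gamma chain, and none of these calls was kept in any of the 6 fits. The 2 higher members were MFGE8, which bridges phagocytes to dying cells, with 833, 936 and 976 CPM in csf1rDM and 233, 326 and 352 CPM in il34-/- fish (log2 fold change 1.59, adjusted p = 0.025, called in 1 of the 6 fits), and rac2, a GTPase of phagocytes (0.60, adjusted p = 0.042, called in none of the 6). havcr1, a phosphatidylserine receptor, had 24.3, 6.92 and 8.40 CPM in csf1rDM and 104, 127 and 163 CPM in il34-/- fish without overlap, but missed the threshold (adjusted p = 0.058).

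The 3 chains of complement C1q, which macrophages and microglia synthesise, all fell (3 of 3 tested, against 0.952% of all genes). c1qa had 11.5, 14.4 and 8.21 CPM in csf1rDM fish, against 162, 259.9 and 201 CPM in il34-/- fish (log2 fold change -4.19 ± 0.66 SE, adjusted p = 0.0075). c1qc had 23.103, 5.64 and 33.4 CPM in csf1rDM fish and 469, 577 and 533 CPM in il34-/- fish (-4.67 ± 0.77 SE, adjusted p = 0.009). c1qb had 30.1, 10.5 and 12.9 CPM in csf1rDM fish and 305, 409.6 and 395 CPM in il34-/- fish (-4.38 ± 0.84 SE, adjusted p = 0.019). Low but measurable levels were present in every csf1rDM fish, and the genotypes were far apart. The call of c1qb was lost without csf1rDM replicate 2, csf1rDM replicate 3 or il34 replicate 2 (adjusted p up to 0.090). In control fish the 3 chains lay above the il34-/- fish, for example c1qc with 1021, 1166 and 1457 CPM, so that il34-/- fish were in between. The difference of il34-/- from control was not called for any chain (c1qa log2 fold change -1.10, adjusted p = 0.51).

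Of 18 scavenger and surface genes of macrophages tested, 4 fell (22.2%, against 0.952% of all genes) and none rose. Without overlap, 11 were lower and 1 higher in csf1rDM fish (61.1% lower, against 11.5% of all genes). The list's median log2 fold change was -1.98, or -1.51 with genes at 0 set to that bound. CMKLR1, the chemerin receptor, had 101, 40.8 and 34.6 CPM in csf1rDM fish and 245, 307 and 275 CPM in il34-/- fish (log2 fold change -2.24 ± 0.38 SE, adjusted p = 0.011). It was higher still in controls, at 1233, 1843 and 1638 CPM, and was also called between il34-/- and control fish (-2.51, adjusted p = 0.015). Without csf1rDM replicate 2 the csf1rDM against il34-/- difference in CMKLR1 just missed the threshold (adjusted p = 0.051). cxcr3.2, a chemokine receptor of zebrafish macrophages, had 180.2, 172 and 175 CPM in csf1rDM fish and 562, 555 and 615 CPM in il34-/- fish (-1.71 ± 0.21 SE, adjusted p = 0.0016) and kept its call in all 6 fits. The remaining lower members were lgals3bp.1 and an MFAP4 gene (ENSDARG00000088745), called in 1 and 0 of the 6 fits. Several classical markers had separate levels without passing the test. marco, a scavenger receptor, had 15.5, 13.5 and 17.2 CPM in csf1rDM and 181, 211 and 155 CPM in il34-/- fish (adjusted p = 0.15), and mrc1b, a mannose receptor, had 23.4, 0 and 27.8 CPM in csf1rDM and 814, 415 and 342 CPM in il34-/- fish (adjusted p = 0.25). itgb7, an integrin gene, had 583, 594 and 337 CPM in csf1rDM and 216, 258 and 213 CPM in il34-/- fish, higher without overlap, and just missed the threshold (log2 fold change 1.14, adjusted p = 0.052). Summed over the 18 genes, csf1rDM fish had 1335, 1171 and 1027 CPM, il34-/- fish 2909.9, 3313 and 2307 CPM and control fish 4969.8, 6208 and 6804 CPM.

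Of 12 microglia genes tested, 2 fell (16.7%, against 0.952% of all genes) and none rose. They were mertka and lgals3bp.1, which also belong to the lists above and were called in 3 and 1 of the 6 fits. Without overlap, 7 of the 12 were lower (58.3%, against 11.5% of all genes) and 2 higher in csf1rDM fish. apoeb, an apolipoprotein abundant in zebrafish microglia, had 427, 391.5 and 309.5 CPM in csf1rDM and 823, 911 and 919.7 CPM in il34-/- fish (adjusted p = 0.29), and ccl34b.1, a chemokine of zebrafish microglia, had 2.03, 2.11 and 0 CPM in csf1rDM and 41.5, 46.5 and 32.6 CPM in il34-/- fish (adjusted p = 0.072). Neither pair overlapped, and neither passed the test. Microglia were not separated from other *mpeg1*+ cells, so these genes cannot be assigned to the brain. GPR34, a lysophospholipid receptor known from mammalian microglia, was outside the list and named after its values were seen. It went the other way, with 129.8, 117 and 184 CPM in csf1rDM fish, against 21.1, 30.5 and 30.6 CPM in il34-/- fish (log2 fold change 2.39, adjusted p = 0.016, called in 2 of the 6 fits).

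Among 16 tested transcription factors of myeloid cells, 2 fell (12.5%, against 0.952% of all genes) and none rose. CEBPA (ENSDARG00000036074), a factor of granulocyte and macrophage precursors, had 106, 89.0 and 144 CPM in csf1rDM fish, against 1264, 1152 and 1109 CPM in il34-/- fish. The log2 fold change was -3.38 ± 0.26 SE (adjusted p = 3.1e-05), and the fish of each genotype lay close together. In controls CEBPA was at 1484, 1420.4 and 1484 CPM, and the difference of il34-/- from control missed the threshold (-0.32, adjusted p = 0.7). CEBPB, which mature macrophages use, had 303, 595 and 388 CPM in csf1rDM fish and 1246, 1409 and 1851 CPM in il34-/- fish (-1.81 ± 0.27 SE, adjusted p = 0.0053). Controls had 3583, 3539 and 3914 CPM of CEBPB, so il34-/- fish lay in between, and their difference from control was itself called (-1.29, adjusted p = 0.045). Both calls were kept in all 6 fits. spi1a, a zebrafish counterpart of PU.1, had 1635, 1979.6 and 2179.6 CPM in csf1rDM and 1777, 1937 and 1817 CPM in il34-/- fish (log2 fold change 0.07 ± 0.11 SE), and IRF8 had 373, 258 and 347 CPM in csf1rDM and 353, 506 and 398 CPM in il34-/- fish. These master factors of the macrophage lineage overlapped between the genotypes. SPIC, a factor of red pulp macrophages in mice that was named after its values were seen, rose to 530.4, 526 and 582 CPM in csf1rDM fish, against 83.6, 45.7 and 94.5 CPM in il34-/- fish (2.87 ± 0.46 SE, adjusted p = 0.0079, kept in all 6 fits).

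Of 19 pan-leukocyte genes tested, rac2 was the only one called (5.26%, against 1.82% of all genes), and the median log2 fold change was 0.15. Of the others, ptprc, which encodes CD45, had 780.1, 786 and 781 CPM in csf1rDM fish and 837, 965 and 875 CPM in il34-/- fish (log2 fold change -0.19 ± 0.12 SE, adjusted p = 0.5), slightly lower without overlap. Summed over the list, the level was 19835, 18868 and 19066 CPM in csf1rDM fish and 17069, 20252 and 18284 CPM in il34-/- fish, which overlap. Of 34 lysosome genes, 2 rose (5.88%, against 0.867% of all genes) and none fell. They were grna, which encodes a progranulin, with 4879, 5759 and 3643 CPM in csf1rDM and 2169.6, 2249.5 and 1718 CPM in il34-/- fish (1.22 ± 0.17 SE, adjusted p = 0.0034), and NEU1, a sialidase (1.95, adjusted p = 0.043, called in 1 of the 6 fits).

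Of 36 epithelial junction genes tested, 11 were higher in csf1rDM fish and none lower at the threshold (30.6%, against 1.82% of all genes), 22 had no overlap with csf1rDM above il34-/- (61.1%, against 11.2% of all genes), and the median log2 fold change was 2.56, against 0.05 over all genes. cdh1 (ENSDARG00000102750), which encodes E-cadherin, had 429, 501 and 297 CPM in csf1rDM fish, against 32.3, 23.6 and 18.4 CPM in il34-/- fish (log2 fold change 4.05 ± 0.45 SE, adjusted p = 0.00082). cldn3c (ENSDARG00000069503, also named cldnh), a claudin of tight junctions, had 852, 1119 and 1473 CPM in csf1rDM fish and 61.1, 76.5 and 149 CPM in il34-/- fish (3.59 ± 0.49 SE, adjusted p = 0.0034). f11r.1, a junctional adhesion molecule, had 229, 330.3 and 591 CPM in csf1rDM fish and 38.2, 16.8 and 12.7 CPM in il34-/- fish (4.09 ± 0.62 SE, adjusted p = 0.0059). In these 3 genes every csf1rDM fish was far above every il34-/- fish, and also above every control fish. By mean log2 CPM, controls lay between the mutants, nearer to il34-/- fish in cdh1 and cldn3c and nearer to csf1rDM fish in f11r.1. JUP, plakoglobin of adherens junctions and desmosomes, had 794, 1022 and 1063 CPM in csf1rDM fish and 194, 275 and 263 CPM in il34-/- fish (1.97 ± 0.28 SE, adjusted p = 0.0044). These 4 calls were kept in all 6 fits. epcam, an epithelial adhesion molecule, had 434, 626 and 805 CPM in csf1rDM fish and 39.0, 88.1 and 176 CPM in il34-/- fish (adjusted p = 0.024), and its call was kept in 2 of the 6 fits (adjusted p 0.021 to 0.1). The other called members, among them cldnb, cldne, cldn7b, pkp3a and PERP, kept theirs in 0 to 2 of the 6 fits. Of these, cldne had 1.89, 15.5 and 15.1 CPM in csf1rDM fish, no read in il34-/- fish and 35.7, 2.91 and 12.6 CPM in controls, where csf1rDM and control fish overlapped and the il34-/- to control difference was called (adjusted p = 0.031). Of the 36 genes, 4 were called without csf1rDM replicate 2, csf1rDM replicate 3 or il34 replicate 2, 5 without il34 replicate 1, 7 without il34 replicate 3 and 10 without csf1rDM replicate 1, all higher in csf1rDM fish. Summed over the list, csf1rDM fish had 4136, 6172 and 6749 CPM and il34-/- fish 841, 938 and 1218 CPM. Control fish lay between, at 2601, 1781 and 1469 CPM, under every csf1rDM fish and above every il34-/- fish.

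**Figure D2:**
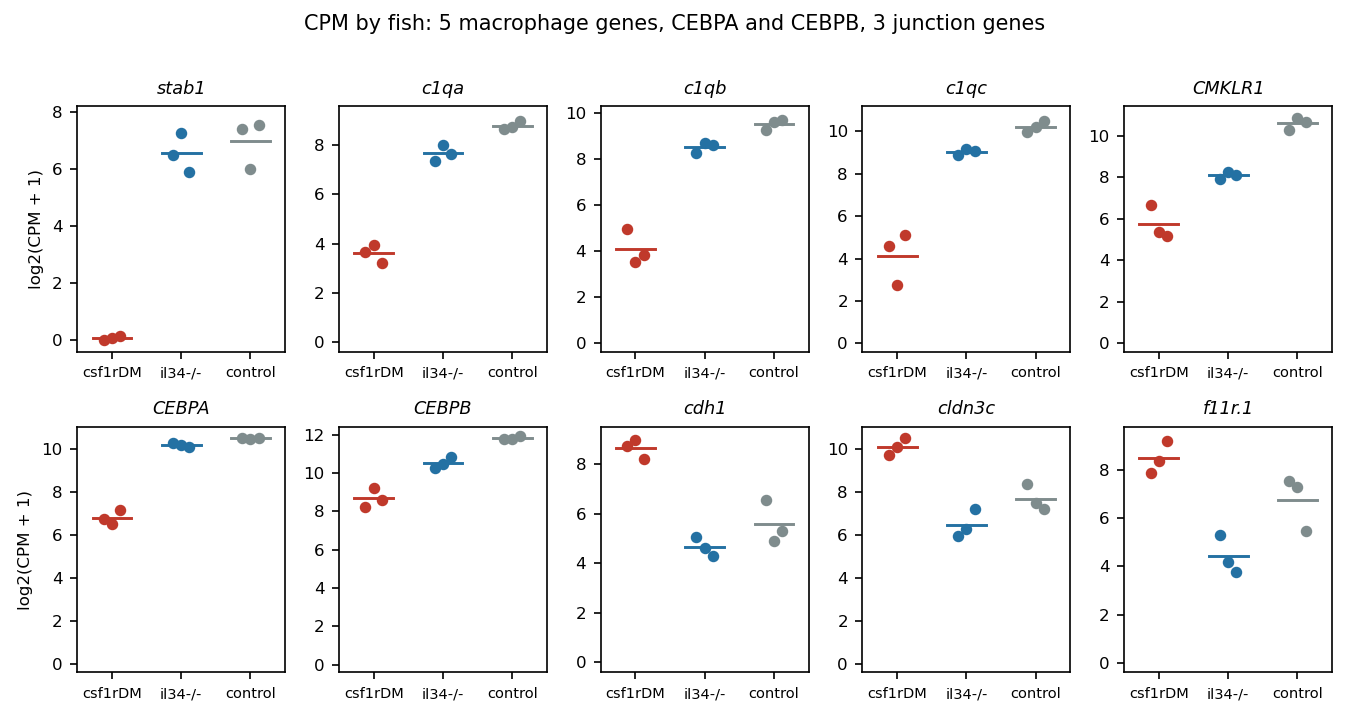
Points are single fish at 1.5 mpf, with log2(CPM + 1) on the vertical axis and horizontal bars for the mean of 3 fish; csf1rDM, il34-/- and control fish run from left to right. In stab1, the C1q chains, CMKLR1, CEBPA and CEBPB all csf1rDM fish lie under all others, and in cdh1, cldn3c and f11r.1 they lie above all others.

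The study text names 4 genes as examples of a metaphocyte signature, of which cdh1, epcam and cldn3c are described above. The fourth, cd4-1, a T cell and macrophage co-receptor, had 33.6, 36.9 and 19.4 CPM in csf1rDM fish and 69.7, 63.8 and 64.1 CPM in il34-/- fish, lower without overlap, but it missed the threshold (log2 fold change -1.14, adjusted p = 0.098). As examples of genes lower in metaphocytes than in Langerhans cells and neutrophils it names itgb7, CDK1, CMKLR1 and CEBPB. CMKLR1 and CEBPB were lower in csf1rDM than in il34-/- fish, and CDK1 overlapped. The gene itgb7 went against that direction, being higher in csf1rDM fish without overlap but short of the threshold. The study also found the adult skin cells that it identified as metaphocytes to be negative for ptprc. In the csf1rDM cells here, sorted from whole fish, ptprc was only slightly lower than in il34-/- fish, as given above. The epithelial genes prom2 and spint2, and cd9b, were higher in csf1rDM fish. All lie outside the lists and were named after their values were seen. cd9b had 101, 238 and 319 CPM in csf1rDM fish and 39.4, 45.6 and 74.8 CPM in il34-/- fish (adjusted p = 0.041, called in 1 of the 6 fits). spint2, a protease inhibitor of epithelia, had 259, 431 and 362 CPM in csf1rDM fish and 17.5, 18.3 and 79.4 CPM in il34-/- fish (adjusted p = 0.02, called in 2 of the 6 fits), and prom2 had 250.1, 398 and 261 CPM in csf1rDM fish and 4.45, 17.3 and 0 CPM in il34-/- fish (adjusted p = 0.037, called in 2 of the 6 fits).

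Of 23 keratin and periderm genes tested, 1 was called (4.35%, against 1.82% of all genes), and 13 had no overlap with csf1rDM above il34-/- (56.5%, against 11.2% of all genes) and 1 the other way. The called gene was krt4, a surface keratin, at 659, 933 and 775 CPM in csf1rDM fish and 200.1, 154 and 165 CPM in il34-/- fish (log2 fold change 2.19 ± 0.34 SE, adjusted p = 0.0071, kept in all 6 fits). The median log2 fold change of the list was 2.06, with 19 of the 23 above 0, but the summed level was 4586, 4613 and 5372 CPM in csf1rDM fish and 4548, 5774 and 4268 CPM in il34-/- fish, which overlap. Of 14 epithelial transcription factors tested none rose at the threshold, with a median log2 fold change of 3.36 and summed levels of 183, 245 and 162 CPM in csf1rDM fish, against 44.1, 69.6 and 42.0 CPM in il34-/- fish. The one that fell (7.14%, against 0.952% of all genes) was PRDM1, which is also a leukocyte factor. It had 0, 0.0346 and 0 CPM in csf1rDM and 19.8, 23.0 and 37.0 CPM in il34-/- fish (adjusted p = 0.042, called in none of the 6 fits). Ionocyte genes had no call among 17 tested, with 4 at an unadjusted p under 0.05 and 2 called by DESeq2 (summed 1283, 925 and 1040.0 CPM in csf1rDM and 1589, 1696 and 1359 CPM in il34-/- fish).

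Markers of other cell types, some of which the sort could have carried along, were also compared. B cells need not be carried over, since work cited by the study reports mpeg1 in a subset of adult zebrafish B cells. No gene was called among the erythroid (12 tested), thrombocyte (9), T and NK-like (23), endothelial (10), fibroblast (14), skeletal muscle (10), neural (6), osteoclast (9), melanophore (3), iridophore (9) and liver, pancreas and gut (18) lists by edgeR. At an unadjusted p under 0.05 these lists had 0 to 3 members each, and DESeq2 called 0 to 3 of each, 1 of them higher in csf1rDM fish. Fibroblast genes were nevertheless lower in every csf1rDM fish when summed, with 1084, 952 and 673 CPM, against 2761, 2615 and 2036 CPM in il34-/- fish. Their most abundant members were collagen genes, col1a1a with 206, 214 and 211 CPM in csf1rDM and 587, 596 and 625 CPM in il34-/- fish (log2 fold change -1.52, adjusted p = 0.33). Endothelial genes summed to 88.4, 106 and 39.5 CPM in csf1rDM fish and 185, 199.7 and 148 CPM in il34-/- fish. Thrombocyte genes summed to 9.19, 67.5 and 69.2 CPM in csf1rDM and 176, 88.0 and 126 CPM in il34-/- fish. Of the pigment cells, iridophore genes summed to 135, 124 and 78.3 CPM in csf1rDM and 237, 259 and 304 CPM in il34-/- fish, and melanophore genes to 1.08, 0 and 2.83 CPM in csf1rDM and 23.4, 26.6 and 33.6 CPM in il34-/- fish. All these sums were lower in every csf1rDM fish, as were those of the neutrophil and ionocyte lists. Xanthophore genes summed to 169, 151 and 160 CPM in csf1rDM and 207, 365 and 301 CPM in il34-/- fish. That list holds csf1ra, a targeted gene, and without csf1ra its sums overlapped between the genotypes. T and NK-like genes summed the other way, with 2476, 2615 and 2879 CPM in csf1rDM and 1551, 2058 and 1471 CPM in il34-/- fish. Most of that sum was 1 gene, CCR9, which was not called. The median log2 fold change of the T and NK-like list was -0.002, with 11 members above 0 and 12 below. Sums of B cell genes (558, 718 and 523 CPM in csf1rDM and 402, 469 and 465 CPM in il34-/- fish) and, narrowly, osteoclast genes were also higher in csf1rDM fish. The part of these cells in the other results was not tested. Of 16 neutrophil genes adam8a alone was called, and it fell (6.25%, against 1.82% of all genes). Its adjusted p was 0.012, and the call was lost without csf1rDM replicate 2 or csf1rDM replicate 3 (adjusted p up to 0.070). Of 13 B cell genes cd22 alone was called, and it fell (7.69%). It had no read in csf1rDM fish and 37.8, 96.7 and 12.8 CPM in il34-/- fish. By a floor of 3 reads over the group, cd22 was at least 1070-fold lower in csf1rDM fish (adjusted p = 0.023, called in 2 of the 6 fits). Of 10 xanthophore genes csf1ra was the only one called (10.0%, against 1.82% of all genes).

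Antigen presentation genes were mostly higher in csf1rDM fish, but 1 of 14 passed the test (7.14%, against 1.82% of all genes). ciita, the master regulator of MHC class II genes, had 436, 449.8 and 274 CPM in csf1rDM fish and 80.3, 169.8 and 137 CPM in il34-/- fish (log2 fold change 1.58 ± 0.34 SE, adjusted p = 0.034, called in 1 of the 6 fits). The invariant chain cd74a had 19313, 15861 and 20030.0 CPM in csf1rDM fish and 8927, 11888 and 12719 CPM in il34-/- fish (0.72 ± 0.19 SE, adjusted p = 0.087), and cd83 had 499.8, 552 and 617 CPM in csf1rDM and 149.9, 181 and 261 CPM in il34-/- fish (adjusted p = 0.064). Neither overlapped between the genotypes. Control fish had 12927, 17976 and 18415 CPM of cd74a and 551, 497 and 495 CPM of cd83, in both above every il34-/- fish. For ciita they were nearer to il34-/- fish, at 120, 112 and 219 CPM. Summed over the list, csf1rDM fish had 34443, 25531 and 31437 CPM and il34-/- fish 12789, 15261 and 15494 CPM. The control sums, 20672, 28256 and 28154 CPM, overlapped those of csf1rDM fish and lay above every il34-/- fish. mhc2d4b, an MHC class II gene outside the list, was among the 12 higher genes with the smallest adjusted p-values, at 4902, 3552 and 4219 CPM in csf1rDM and 1270.3, 1118 and 1286 CPM in il34-/- fish (1.79 ± 0.22 SE, adjusted p = 0.0017). Classical MHC genes vary between fish in which copies they carry. mhc2dga had 5308, 0.519 and 0.293 CPM in csf1rDM fish and 0.262, 0.553 and 0.430 CPM in il34-/- fish, so 1 of 3 csf1rDM fish expressed it, and mhc2dab had 3612, 5933 and 7052 CPM in csf1rDM and 1758, 223 and 203 CPM in il34-/- fish (adjusted p = 0.35). Reads of such near-identical genes can be split between copies, and their values are uncertain.

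Of 35 chemokine and chemokine receptor genes, ccl25b rose (log2 fold change 2.24, adjusted p = 0.015, called in 2 of the 6 fits) and cxcr3.2 fell. These calls were 5.71% of the list, against 1.82% of all genes. Among 14 interferon-stimulated genes IRF7 alone was called (7.14%), with a log2 fold change of 2.38 (adjusted p = 0.038, called in none of the 6). Among 11 iron and haem genes the ferritin gene fthl28 alone was called (9.09%), with 2.67 (adjusted p = 0.032, called in 1 of the 6). None was called among 19 inflammatory, 25 immediate early, 22 lipid and 12 mitochondrially encoded genes; at an unadjusted p under 0.05 there were 4, 3, 6 and 6, and DESeq2 called 2, 2, 3 and 1 of them. The most abundant of these were tnfb and nfkbiab, JUNB and DUSP1, and MT-CO1 and MT-CYB, of which DUSP1, a phosphatase of the immediate early response, had 491, 859 and 1085 CPM in csf1rDM and 281, 484 and 522 CPM in il34-/- fish (log2 fold change 0.92, adjusted p = 0.19).

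**Figure D3:**
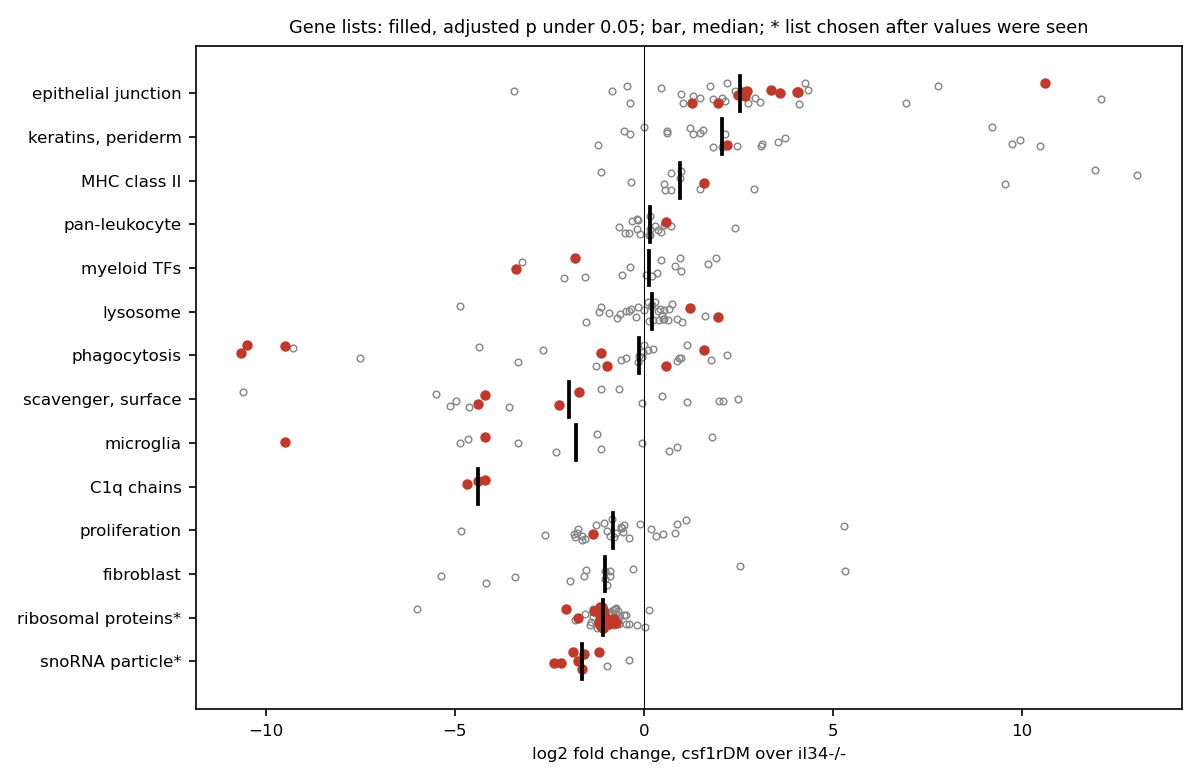
Each point is a gene of the list named at the left, placed by its log2 fold change (csf1rDM over il34-/-); filled points have an adjusted p under 0.05 and black bars are list medians. Of the junction genes 32 of 36 lie to the right of 0 (median 2.56), the 3 C1q chains lie far to the left (median -4.38), and 79 of 81 ribosomal proteins lie left of 0 (median -1.07).

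Ribosomal protein genes, a list chosen after values were seen because several stood among the smallest p-values, were lower by similar amounts. Of 81 tested, 27 were lower and none higher at the threshold (33.3%, against 1.82% of all genes). Without overlap, 74 lay lower in csf1rDM than in il34-/- fish (91.4%, against 11.5% of all genes), and the median log2 fold change was -1.07. RPL3 had 978, 846 and 927 CPM in csf1rDM fish, against 1839, 1942 and 2074 CPM in il34-/- fish (log2 fold change -1.09 ± 0.11 SE, adjusted p = 0.00039). RPS4Y2 had 258, 245 and 227 CPM in csf1rDM fish and 719.6, 895 and 839.6 CPM in il34-/- fish (-1.75 ± 0.18 SE, adjusted p = 0.00051), and RPLP0 had 518, 450.3 and 513 CPM in csf1rDM and 936, 1069.6 and 1122 CPM in il34-/- fish (-1.08 ± 0.13 SE, adjusted p = 0.0011). The control fish were level with the il34-/- fish, with 1779, 2003 and 2122 CPM of RPL3. Summed over the 81 genes, csf1rDM fish had 7152, 5989 and 7409.9 CPM, il34-/- fish 12779.6, 14353 and 14596 CPM and control fish 13716, 14125 and 16701 CPM. The elongation factors named after their values were seen, eef1a1l1 (-0.76, adjusted p = 0.0084) and EEF1B2 (-1.28, adjusted p = 0.0066), fell as well. When the 6 fish were left out in turn, 11 to 18 genes of the list were called, all lower, with medians of -1.12 to -1.05. The median was also negative with the 6 fish fitted alone (5 calls, median -1.08) and under scaling by library size alone (32 calls, median -1.16).

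For some genes it was the il34-/- fish that stood apart from both other groups at 1.5 mpf. The sums of some lists given above had this pattern as well. Control fish had 159, 130 and 166 CPM of epithelial transcription factors and 2765, 2602 and 2498 CPM of T and NK-like genes. Both sets of sums overlapped those of csf1rDM fish and lay above every il34-/- fish. The core proteins of small nucleolar RNA particles, which modify ribosomal RNA, are encoded by a set of genes that was also chosen after values were seen. Of 9 tested, 7 were lower in csf1rDM than in il34-/- fish and none higher (77.8%, against 1.82% of all genes), with a median log2 fold change of -1.63. DKC1, dyskerin, had 64.6, 67.4 and 76.6 CPM in csf1rDM fish, against 383, 354 and 351 CPM in il34-/- fish (log2 fold change -2.38 ± 0.41 SE, adjusted p = 0.011). FBL, fibrillarin, had 69.4, 91.2 and 78.0 CPM in csf1rDM fish and 268, 218 and 313 CPM in il34-/- fish (-1.74 ± 0.31 SE, adjusted p = 0.012). Summed over the 9 genes, csf1rDM fish had 579.6, 736 and 649 CPM and il34-/- fish 2036, 1969 and 1881 CPM. Control fish of the same age had 765, 564 and 659 CPM, level with csf1rDM fish. The order differed at 33 dpf, where csf1rDM fish had 494, 581 and 467 CPM and controls 2303, 1242 and 1507 CPM, and 6 of the 9 genes were called lower in csf1rDM than in control fish (1.34% of all genes were). The nucleolar gene npm1a, named after its values were seen, had 271, 244 and 255 CPM in csf1rDM, 1106, 1043 and 969 CPM in il34-/- and 404, 154 and 248 CPM in control fish (csf1rDM against il34-/-, -2.02 ± 0.34 SE, adjusted p = 0.01, kept in all 6 fits). At 33 dpf it was lower in csf1rDM than in control fish (-2.01, adjusted p = 0.0065). The call of DKC1 was lost without csf1rDM replicate 1 or csf1rDM replicate 2 (adjusted p up to 0.052) and that of FBL without csf1rDM replicate 1 or csf1rDM replicate 3 (up to 0.066), and 0 to 4 of the 9 genes were called in the 6 fits.

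Of 30 proliferation genes tested, 1 was called (3.33%, against 1.82% of all genes). PCNA, the sliding clamp of DNA polymerase, was at 329, 276 and 232 CPM in csf1rDM and 764, 621 and 720.4 CPM in il34-/- fish (log2 fold change -1.33 ± 0.24 SE, adjusted p = 0.015). Controls had 339.9, 254 and 195 CPM, and the il34-/- excess over control was called (1.41, adjusted p = 0.023). At 33 dpf PCNA was called lower in csf1rDM than in control fish (-1.39, adjusted p = 0.0083). Without csf1rDM replicate 2 or csf1rDM replicate 3 the csf1rDM against il34-/- difference missed the threshold (adjusted p up to 0.063). MCM2, of the replicative helicase, had 141, 319 and 197 CPM in csf1rDM fish and 756, 677 and 757 CPM in il34-/- fish (adjusted p = 0.08), without overlap. The mitotic genes mki67 and CDK1 overlapped between the genotypes, CDK1 at 41.1, 25.9 and 53.7 CPM in csf1rDM and 15.04, 46.6 and 35.14 CPM in il34-/- fish. Over the 30 genes, 11 lay lower in csf1rDM fish without overlap (36.7%, against 11.5% of all genes) and none higher, and the sums were 2032, 2232 and 1805 CPM in csf1rDM fish, 4687, 3653 and 4064 CPM in il34-/- fish and 2177, 1672 and 1374 CPM in control fish.

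**Figure D4:**
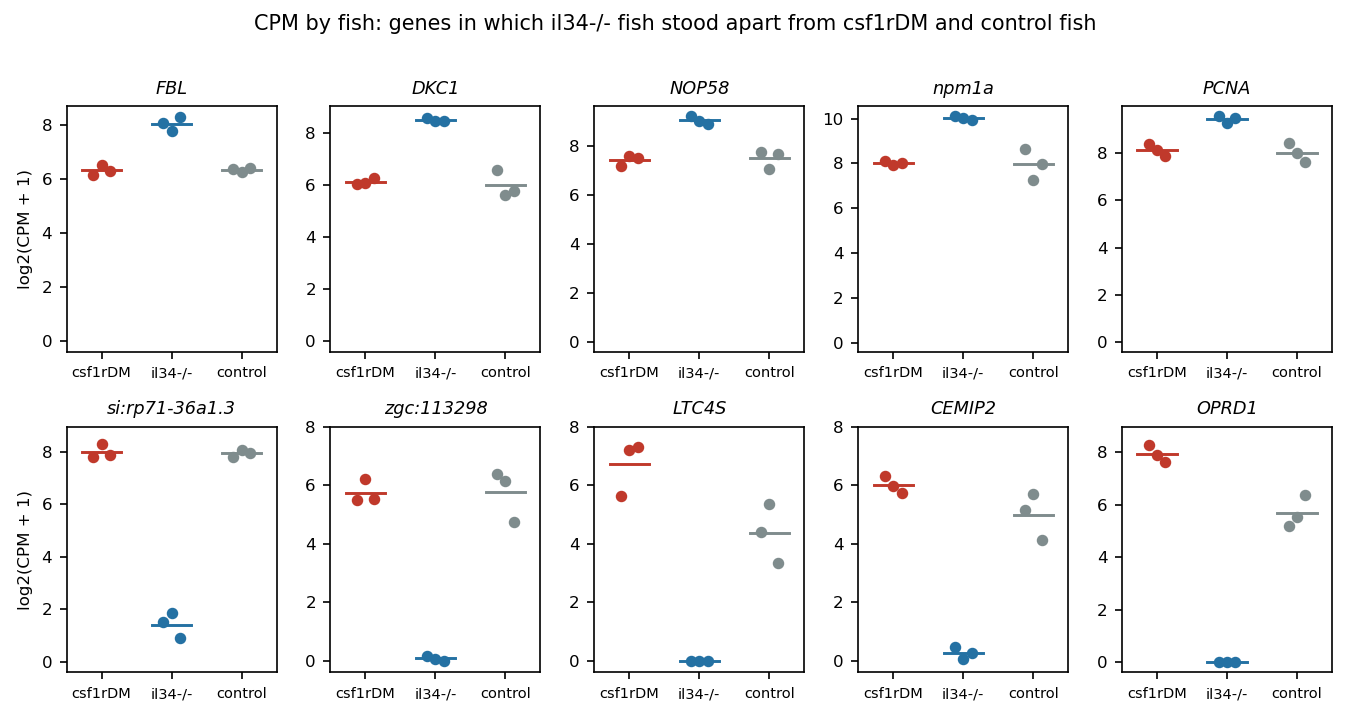
Points are single fish at 1.5 mpf, with log2(CPM + 1) on the vertical axis and bars for the mean of 3 fish; csf1rDM, il34-/- and control fish run from left to right. In the upper row (FBL, DKC1, NOP58, npm1a, PCNA) il34-/- fish lie above both other groups, and in the lower row (si:rp71-36a1.3, zgc:113298, LTC4S, CEMIP2, OPRD1) they are at or near 0.

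Other genes were nearly absent from il34-/- fish alone. The gene with the smallest adjusted p-value of all was si:rp71-36a1.3 (ENSDARG00000071662), with 223, 311 and 234 CPM in csf1rDM fish, against 1.83, 2.62 and 0.860 CPM in il34-/- fish (log2 fold change 7.13 ± 0.48 SE, adjusted p = 2e-05). Control fish had 223, 269 and 246 CPM, level with csf1rDM fish. zgc:113298 had 43.8, 73.5 and 44.8 CPM in csf1rDM fish and 0.131, 0.0368 and 0 CPM in il34-/- fish, 2906 against 2 reads, a ratio of 1380 (95% exact interval for counting error 381 to 11400; adjusted p = 7.8e-05). aste1a, CAVIN2 (ENSDARG00000027611) and CEMIP2, a hyaluronidase, were also near 0 in il34-/- fish. Their il34-/- to control differences were called too (CEMIP2 log2 fold change -7.42, adjusted p = 0.0071). For csf1rDM against control their log2 fold changes were -1.19, 1.38 and 0.93, and none was called. OPRD1, an opioid receptor gene named after its values were seen, had 306, 235 and 198 CPM in csf1rDM fish and no read in il34-/- fish, at least 3500-fold higher in csf1rDM fish by the floor of 3 reads (adjusted p = 0.0079). Control fish lay between, at 35.8, 45.1 and 82.1 CPM of OPRD1. At 33 dpf controls had 0, 4.63 and 18.25 CPM of it, so low levels were not confined to il34-/- fish. The calls of these 6 genes were kept in all 6 fits. With 3 fish of 1 mutant line, loss of il34 and other alleles carried by that line cannot be told apart. Receptor loss and other alleles of the csf1rDM line cannot be told apart either, and the 33 dpf csf1rDM fish had the same genotype.

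The leukotriene pathway, a list chosen after values were seen, was split. LTC4S, which makes leukotriene C4, had 48.8, 148 and 157 CPM in csf1rDM fish and no read in il34-/- fish, at least 1970-fold higher in csf1rDM fish (adjusted p = 0.00023, kept in all 6 fits). Control fish lay between, at 20.3, 40.4 and 9.06 CPM. LTA4H, which makes leukotriene B4, had 26.8, 8.24 and 5.28 CPM in csf1rDM and 244, 342 and 154 CPM in il34-/- fish (log2 fold change -4.21 ± 0.75 SE, adjusted p = 0.012). ALOX5AP, which presents arachidonate to the first enzyme, had 4.19, 0.0692 and 2.64 CPM in csf1rDM and 69.1, 44.3 and 88.3 CPM in il34-/- fish (-4.91 ± 0.94 SE, adjusted p = 0.019). In both the genotypes were widely apart, and control fish were level with il34-/- fish, for example 209.6, 312 and 279 CPM of LTA4H. The call of LTA4H was lost without csf1rDM replicate 2 or csf1rDM replicate 3 and that of ALOX5AP without csf1rDM replicate 3 (adjusted p up to 0.069 and 0.075). The 3 other genes tested, which encode 5-lipoxygenases, were not called. Calls thus made up 50.0% of the list, against 1.82% of all genes.

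Further genes among the 12 smallest adjusted p-values in each direction were as follows. On the higher side, si:dkey-33i11.9 had 1262, 885 and 1388 CPM in csf1rDM and 153, 149.6 and 139 CPM in il34-/- fish (log2 fold change 3.002 ± 0.30 SE). SLC15A4, a lysosomal histidine and peptide transporter, had 728, 853 and 732 CPM in csf1rDM and 312, 238 and 301 CPM in il34-/- fish (1.44 ± 0.17 SE). GM2A (ENSDARG00000088439), the activator of ganglioside breakdown, and cfl1l, a cofilin-like gene, also rose (1.41 and 2.69). On the lower side, TGFBI, an extracellular matrix protein that macrophages secrete, had 56.5, 89.1 and 54.1 CPM in csf1rDM and 431, 448 and 352 CPM in il34-/- fish (-2.62 ± 0.26 SE). zgc:64065 had 1 read in csf1rDM fish and 2792 in il34-/- fish, a ratio of il34-/- to csf1rDM of 2950 (95% exact interval for counting error 529 to 116000). nrp1b, a neuropilin, had 0.135, 0.104 and 0 CPM in csf1rDM and 30.5, 22.2 and 31.4 CPM in il34-/- fish. si:dkey-148a17.6 fell (-2.30), and PA2G4 and SSR1 fell relative to il34-/- fish (-1.56 and -2.14) while controls were level with csf1rDM fish, at 125, 124 and 112 CPM of SSR1. The genes without a symbol were led by ENSDARG00000086294 on the higher side (3.65) and ENSDARG00000015853 on the lower side (-3.001). These calls were kept in all 6 fits.

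The control fish of the same age did not enter this contrast, and they were used to see which genotype lay away from them. Of the 321 called genes, the mean log2 CPM of controls was nearer to il34-/- fish in 214 and nearer to csf1rDM fish in 107. Among the 168 genes lower in csf1rDM fish it was nearer to il34-/- in 128, and 83 of these lay beyond the il34-/- mean, away from csf1rDM. Among the 153 genes higher in csf1rDM fish it was nearer to il34-/- in 86 and nearer to csf1rDM in 67. On a scale from 0 at the il34-/- mean to 1 at the csf1rDM mean, the median position of controls was 0.02 for the lower and 0.44 for the higher genes. Called genes lower in csf1rDM were thus mostly ones in which csf1rDM lay farther from control, and called genes higher in csf1rDM were a mixture of both kinds. These positions were not counted over all genes tested, so they are no result about the called genes in particular. By distance in log2 CPM, control fish were on average also nearer to il34-/- fish (393.9, 9 pairs) than to csf1rDM fish (413.0, 9 pairs), with overlapping ranges. Fitted with all fish, csf1rDM against control gave 288 calls (1.63%, of which higher 0.437% and lower 1.2% of all genes) and il34-/- against control 121 (0.686%, higher 0.363% and lower 0.323%); both share the control fish, and they were not compared further.

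The 33 dpf fish shared no library with this contrast, but both contrasts came from 1 fit of all 15 libraries and so share its dispersion estimates. Of the 321 genes, 160 (49.8%) were also called between csf1rDM and control fish at 33 dpf, 89 higher and 71 lower, and all in the same direction, beside 3.05% of all genes called there (1.71% higher and 1.34% lower). They made up 29.7% of the 538 genes called at 33 dpf. By sign alone, 303 of the 321 (94.4%) had the same direction. That share was not counted over all genes tested, so it is no result about the called genes in particular. cdh1 had 349.6, 507 and 495 CPM in csf1rDM and 26.4, 49.0 and 33.3 CPM in control fish at 33 dpf (log2 fold change 3.64, adjusted p = 0.00098), and CEBPA had 28.2, 15.5 and 15.8 CPM in csf1rDM and 235, 333 and 295 CPM in control fish (-3.86, adjusted p = 1.1e-05). stab1 was again near 0 in all 3 csf1rDM fish (0, 0.0703 and 0.0770 CPM), with 235, 174 and 219 CPM in controls. In contrast, si:rp71-36a1.3 had 159.8, 165 and 65.4 CPM in csf1rDM and 155, 173 and 159 CPM in control fish at 33 dpf (adjusted p = 0.8). csf1rDM replicate 2 at 33 dpf had 106374902 counts, far more than any other library, and without it 144 of the 321 genes were called at 33 dpf in the same direction. Fitted separately, the ages gave fewer calls, 184 at 1.5 mpf (1.32% of the genes tested) and 148 at 33 dpf (1.04%), of which 27 were shared, all in the same direction, or 14.7% of the genes called at 1.5 mpf and 18.2% of those called at 33 dpf.

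**Figure D5:**
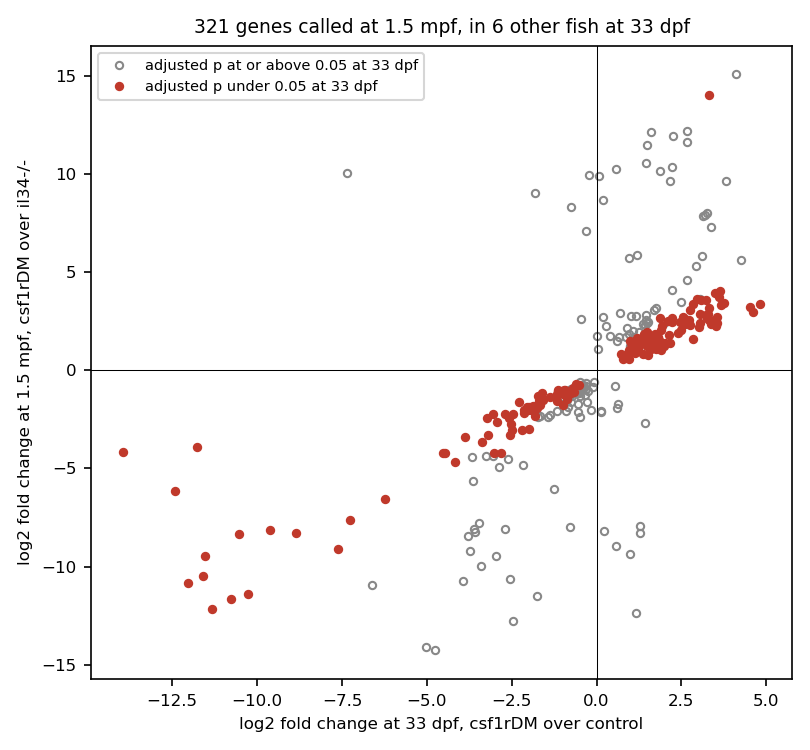
Each point is 1 of the 321 genes called between csf1rDM and il34-/- fish at 1.5 mpf, with the log2 fold change of csf1rDM over control at 33 dpf on the horizontal axis and that of csf1rDM over il34-/- at 1.5 mpf on the vertical axis. Filled points, 160 genes, were also called at 33 dpf and all lie in the lower left or upper right. By sign 303 of the 321 lie there, and the share over all genes was not counted.

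Presence and absence were counted last. Over all 35117 gene identifiers, on meant at least 10 reads in every fish of a genotype, and off at most 3 in every fish. By this rule 197 genes were on in csf1rDM and off in il34-/- fish, and 174 genes the other way round. Of the 197, 19 were called, and of the 174, 27, beside 1.82% of all genes tested. The rule itself picked genes that differed between the genotypes, so these shares are no separate result. Controls also had at least 10 reads in every fish for 28 of the 197 and 59 of the 174, and at most 3 in every fish for 39 of the 197 and 8 of the 174. The genes stab1, csf1ra and mertka belong to the 174, and cldne, LTC4S and OPRD1 to the 197. Asking for at least 20 reads against 0 left 103 and 75 genes, and leaving out 1 fish gave 281 to 474 and 239 to 360 genes.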

How the data were processed

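The *mpeg1*+ cells of single fish were sequenced in pairs of 75 bp reads after ultra-low-input amplification. Per the submitters' processing notes the files rest on the GRCz10 build and on CASAVA 1.8, cutadapt, STAR 2.5.4b, Cufflinks 2.2.1, HTSeq 0.11.0 and edgeR. The authors deposited raw counts per Ensembl gene, which were used as they stand. Symbols came from a table of gene IDs, some of it in capitals, and no sequences were used.

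Here edgeR 4.0.16 (R 4.3.3) was fitted to all 15 libraries, with TMM scaling, edgeR's expression filter and robust quasi-likelihood tests, and p-values were adjusted by Benjamini-Hochberg over 17640 genes. Fold changes are csf1rDM over il34-/- unless stated. CPM values use TMM library sizes, and intervals and floors cover counting error only. Replicates are separate fish. Their numbers were not treated as pairs in the main fit.

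Genes were named if the study text names them, if they led a list or if they were among the 12 smallest adjusted p-values in a direction. The groups compared and all lists were chosen with earlier results of these data known. Some genes that the rule names are not reported here. Lists, and genes outside the lists, that were added after their values were seen are marked. Some list members, such as ccl34b.1, MCM2, mki67 and mhc2dga, were named outside this rule with their values known. They are not marked. The fits were tested on simulated data. DESeq2 1.42.0, other scalings and filters, thinned counts, smaller fits, a replicate block and fits without each fish were tried as alternatives.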

Additional observations from a re-analysis of the deposited data

How the results depend on the processing

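DESeq2 called 1771 genes, including 320 of the 321, and 106 list members in place of 39. Fitting only the 6 fish compared gave 184 called genes, of which 127 were among the 321, and fitting the 9 fish at 1.5 mpf gave 304. Stricter thresholds gave 73 genes (adjusted p under 0.01 and absolute log2 fold change over 1) and 169 genes (absolute log2 fold change over 2). Other scalings, filters and thinning to the smallest library gave 274 to 359 genes. Scaling by library size alone gave the 359, of which 61.3% were lower in csf1rDM fish, against 52.3% under the main scaling. Leaving out 1 fish gave 128 to 217 called genes, 13 to 26 list members, 281 to 474 genes on in csf1rDM and off in il34-/- fish, and 239 to 360 genes the other way round. With at least 20 counts against 0 these were 103 and 75 genes. The share of squared distance held by genotype was 30.18% without a filter, 51.99% over the 500 most variable genes, 30.16% at a prior count of 0.5, 32.46% in thinned counts and 34.5% to 36.6% without 1 fish. The shares without 1 fish rest on fewer fish and cannot be compared with the others. Fitted separately, the ages shared 27 called genes.

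Same-numbered fish did not deviate together (correlations of 0.027, 0.002 and 0.009 for replicates 1, 2 and 3), and the replicate numbers were not used as pairs. With so few fish these values cannot exclude a shared sort or sequencing batch. Replicate 2 was the deepest library of both genotypes. With the number as a replicate block, edgeR called 0 genes and 0 list members (1570 genes at an unadjusted p under 0.05, smallest adjusted p = 0.074), and log2 fold changes of plp1b and mbpa changed sign (-6.52 and 0.05). Without 1 fish, the log2 fold change ran from -11.12 to 1.41 for plp1b (negative without csf1rDM replicate 3), from -0.89 to 1.0 for mbpa (0.07 without csf1rDM replicate 1), from -10.79 to 0.0 for ckma, from -7.98 to 7.29 for csf1b, from -0.2 to 0.39 for JUNB, from -2.14 to 0.0 for csf1a (0.0 also in thinned counts), from -0.02 to 0.68 for CDK1 and from -0.38 to 0.0 for TCIRG1. None of these 8 genes was called. The cause was not tested.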
